A study of Caenorhabditis elegans with 2 samples.

Results

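Small nucleolar RNA (snoRNA) genes were defined as all genes of biotype snoRNA on the nuclear chromosomes in Ensembl release 115 of the WBcel235 assembly of Caenorhabditis elegans. There were 346 of them among 46890 annotated nuclear genes. Of these, 178 lay whole inside an intron of a protein-coding gene and are called intronic here, and 168 lay outside. Among the intronic genes, 150 ran on the strand of their host and 28 on the opposite strand. Of the other 168, 124 lay between protein-coding genes and 44 overlapped an exon. The genes were 54 to 344 bp long, with a median of 130 bp, and the intronic ones belonged to 159 host genes.

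The DNA binding of DAF-19, the RFX transcription factor of the worm, was mapped by ChIP-seq against its GFP tag, in whole animals at the L4 stage (48 hours), from chromatin sheared to 200 to 800 bp. A single group of 2 biological replicates was studied, without a second condition, and in whole animals no signal can be given to a cell type. The strain, OP794, carried the wgIs794 transgene, in which daf-19 is fused to TY1, EGFP and 3xFLAG tags beside a functional unc-119 copy, in an unc-119(tm4063) background, and no daf-19 allele is listed for it. Larvae had been synchronised by bleaching and L1 starvation, and the labels do not say that the replicates came from separate cultures.

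snoRNAs guide chemical changes on other RNAs, chiefly ribosomal RNA. Box C/D snoRNAs direct 2′-O-methylation by fibrillarin, and box H/ACA snoRNAs direct pseudouridylation by dyskerin. Many snoRNAs of animals are cut out of the introns of host genes, while some in C. elegans have been described as having promoters of their own, among them ones that resemble the box A and box B elements which RNA polymerase III factors read in tRNA genes.

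Each deposited peak has a signal value, which is the authors' own, and an irreproducible discovery rate (IDR), a measure of how repeatable its rank is. A peak was called at an IDR of 0.01 or less, and a snoRNA gene was called when the summit of a called peak lay within 200 bp of it. Counts of reads are not in the lists used here, so depth is unknown and a signal has no error of its own. Signals were compared within a list, and replicate values stand side by side for description. Shares are given with 95% Wilson intervals, which cover counting error only, because neighbouring genes can share a peak. The series-wide list, made from both replicates, held 117986 ranked and 996 called peaks, replicate 1 alone 112641 and 408, and replicate 2 alone 110961 and 394.

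The sequences that carry the letters discussed below are the 100 bases just before the 5′ end of the 4 intronic called genes of highest signal, of 2 strong called genes outside introns, of the called gene C10C6.8, and of 2 uncalled genes of low signal. They are written 5′ to 3′ on the strand of the gene, from the RefSeq sequence of WBcel235 (ce11). Capitals mark matches to the box A consensus of tRNA genes and to GTTCNNNNC, a looser form of the box B letters GTTCNANNC; C10C6.8 and the looser letters were chosen after values were seen. The sequences of C51F7.3, T03F7.8, C10C6.8 and the opposite strand at B0334.12 hold both boxes, T06C12.16 holds box A, and the others hold neither.
ZK994.7, V:8500479-8500578, plus strand: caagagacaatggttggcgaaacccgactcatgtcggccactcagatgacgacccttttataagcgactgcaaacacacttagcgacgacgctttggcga
C51F7.3, V:12303608-12303707, plus strand: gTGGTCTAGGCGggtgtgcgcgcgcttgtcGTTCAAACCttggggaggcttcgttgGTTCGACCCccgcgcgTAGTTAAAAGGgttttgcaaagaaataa
T03F7.8, V:11314158-11314257, plus strand: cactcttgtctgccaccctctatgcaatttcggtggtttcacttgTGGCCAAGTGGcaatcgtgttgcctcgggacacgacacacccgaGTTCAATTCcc
B0334.12, II:11484583-11484682, plus strand: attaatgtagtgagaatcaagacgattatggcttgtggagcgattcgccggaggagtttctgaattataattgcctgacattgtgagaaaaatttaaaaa
B0334.12, II:11484753-11484852, minus strand, opposite to the annotated gene: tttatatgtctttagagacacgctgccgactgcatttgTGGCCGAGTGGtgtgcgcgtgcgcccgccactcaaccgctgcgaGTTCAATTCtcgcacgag
C10C6.8, IV:11474192-11474291, minus strand: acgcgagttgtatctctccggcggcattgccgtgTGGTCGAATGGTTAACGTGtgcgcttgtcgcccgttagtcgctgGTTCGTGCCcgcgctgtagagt
T06C12.16, V:15873927-15874026, minus strand: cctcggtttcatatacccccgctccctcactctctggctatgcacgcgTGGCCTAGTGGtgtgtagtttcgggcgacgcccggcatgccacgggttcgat
H09I01.2, IV:8252994-8253093, plus strand: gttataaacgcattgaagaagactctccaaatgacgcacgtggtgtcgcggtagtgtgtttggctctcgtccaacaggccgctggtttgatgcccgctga
JC8.15, uncalled, IV:13239078-13239177, minus strand: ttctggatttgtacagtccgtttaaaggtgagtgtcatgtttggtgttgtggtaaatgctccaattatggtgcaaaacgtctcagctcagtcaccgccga
C18D1.21, uncalled, II:10065731-10065830, plus strand: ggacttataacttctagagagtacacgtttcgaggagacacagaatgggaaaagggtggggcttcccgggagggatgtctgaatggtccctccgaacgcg

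The genes themselves follow, on their annotated strand unless stated. In them capitals mark TGANGA in the first 25 bases, the form of box C searched for here, and CTGA in the last 20 bases, the letters of box D. Capitals also mark ACA with 2 to 4 bases after it, the ending of box H/ACA snoRNAs, which the called C10C6.8 and both uncalled genes have.
ZK994.7, V:8500579-8500645: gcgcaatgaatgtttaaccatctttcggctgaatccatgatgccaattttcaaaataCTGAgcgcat
C51F7.3, V:12303708-12303783: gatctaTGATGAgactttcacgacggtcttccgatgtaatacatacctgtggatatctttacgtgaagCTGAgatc
T03F7.8, V:11314258-11314332: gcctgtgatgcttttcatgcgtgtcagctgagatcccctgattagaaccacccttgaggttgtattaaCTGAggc
B0334.12, II:11484683-11484752: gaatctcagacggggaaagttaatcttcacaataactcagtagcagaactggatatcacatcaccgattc
B0334.12, the same bases read on the opposite strand: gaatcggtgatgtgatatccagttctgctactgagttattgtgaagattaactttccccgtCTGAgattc
C10C6.8, IV:11474059-11474191: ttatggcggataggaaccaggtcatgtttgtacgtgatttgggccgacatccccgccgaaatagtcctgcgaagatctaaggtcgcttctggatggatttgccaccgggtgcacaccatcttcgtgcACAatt
T06C12.16, V:15873855-15873926: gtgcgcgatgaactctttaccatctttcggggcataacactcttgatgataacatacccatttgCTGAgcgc
H09I01.2, IV:8253094-8253165: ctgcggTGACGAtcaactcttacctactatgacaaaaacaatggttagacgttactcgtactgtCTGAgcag
JC8.15, IV:13238932-13239077: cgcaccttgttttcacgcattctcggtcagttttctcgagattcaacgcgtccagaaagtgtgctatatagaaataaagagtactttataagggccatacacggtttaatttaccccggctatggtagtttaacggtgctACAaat
C18D1.21, II:10065831-10065983: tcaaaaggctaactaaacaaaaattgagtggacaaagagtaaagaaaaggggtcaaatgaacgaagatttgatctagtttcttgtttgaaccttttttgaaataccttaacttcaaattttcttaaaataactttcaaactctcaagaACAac

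Called DAF-19 peaks lay beside 54 of the 346 snoRNA genes (15.6%, 12.2 to 19.8), against 2.69% of all 46890 nuclear genes and 2.15% of the genes of other biotypes that were no longer than the longest snoRNA gene. Both backgrounds include genes of biotype piRNA, of which 12 of 15363 were called (0.0781%), and these lower both shares. Protein-coding genes had 646 of 19973 called (3.23%). The 54 genes had 52 distinct peaks behind them, because C51F7.3 and C51F7.4 shared one, as did K11H12.12 and K11H12.13. In replicate 1 alone 37 snoRNA genes were called (10.7%), against 1.27% of all genes, and in replicate 2 alone 41 (11.8%), against 1.32%. The snoRNA share lay below that of tRNA genes, of which 223 of 612 were called (36.4%, 32.7 to 40.3). snRNA genes, whose products build the spliceosome, had 19 of 129 called (14.7%, 9.64 to 21.9), an interval that holds the snoRNA share. miRNA genes had 13 of 261 called (4.98%, 2.93 to 8.33). These comparisons are of counts, with no test over samples, since a single group was studied.

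**Figure D1:**
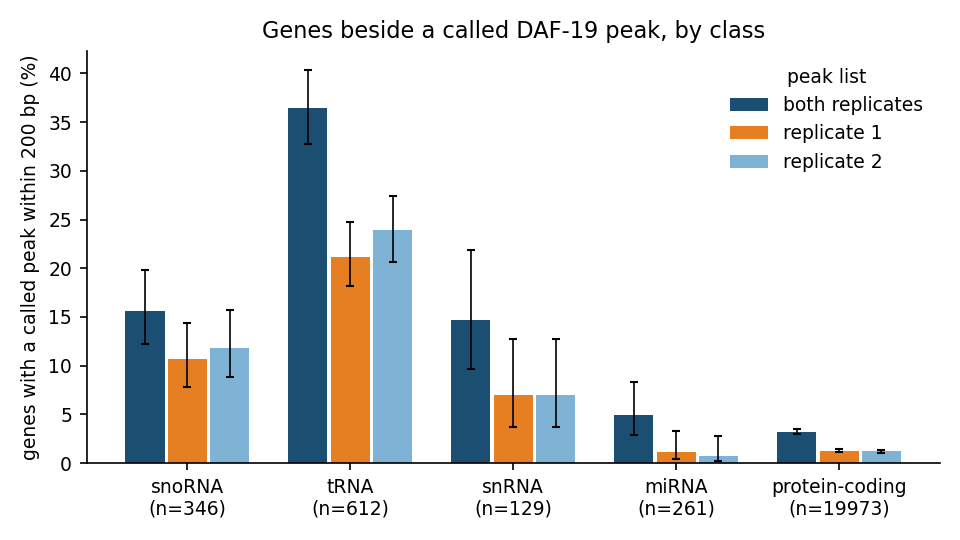
Percent of genes with a called peak summit within 200 bp (vertical axis) for 5 classes of gene, in the list from both replicates (dark blue), replicate 1 (orange) and replicate 2 (light blue); bars are shares and lines their 95% Wilson intervals. snoRNA genes reached 15.6% in the list from both replicates, below the 36.4% of tRNA genes and above the 4.98% of miRNA genes.

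A ranked peak of any signal lay within 200 bp of 215 of the 346 snoRNA genes (62.1%), against 61.3% of all genes and 52.9% of the genes of other biotypes that were no longer than the longest snoRNA gene. The snoRNA share of ranked peaks was thus close to that of all genes and above that of the short ones. The median signal was 178 at the 54 called genes (range 88.3 to 629), against 47.1 (3.52 to 137) at the 161 uncalled genes with a ranked peak. Called and uncalled genes were split by the IDR of these same peaks, so that difference is partly set by the threshold. All 996 called peaks together had a median of 125, and 42 of the 54 snoRNA values stood at or above that median by rank. Called tRNA genes had a median of 152 and called snRNA genes of 131. Of the 100 strongest called peaks 17 lay beside a snoRNA gene (17%), against 9 of the 249 weakest (3.61%) and 54 of all 996 (5.42%).

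The replicates gave similar orders. Of the 54 called genes, 30 were also called in both single-replicate lists, 5 in replicate 1 alone, 9 in replicate 2 alone and 10 in neither. A further 4 genes were called in a single replicate and not in the series-wide list. At the 54 genes the median of the strongest ranked signal was 97.6 in replicate 1 and 79.6 in replicate 2, and the ratio of replicate 1 to replicate 2 had a median of 1.14. Across these genes Spearman's rho of the signals was 0.835 and Pearson's r of the log2 signals 0.799 (n = 54), as a description, since the genes were chosen by a threshold on the same libraries. Summits of the 2 replicates lay a median of 29 bp apart.

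**Figure D2:**
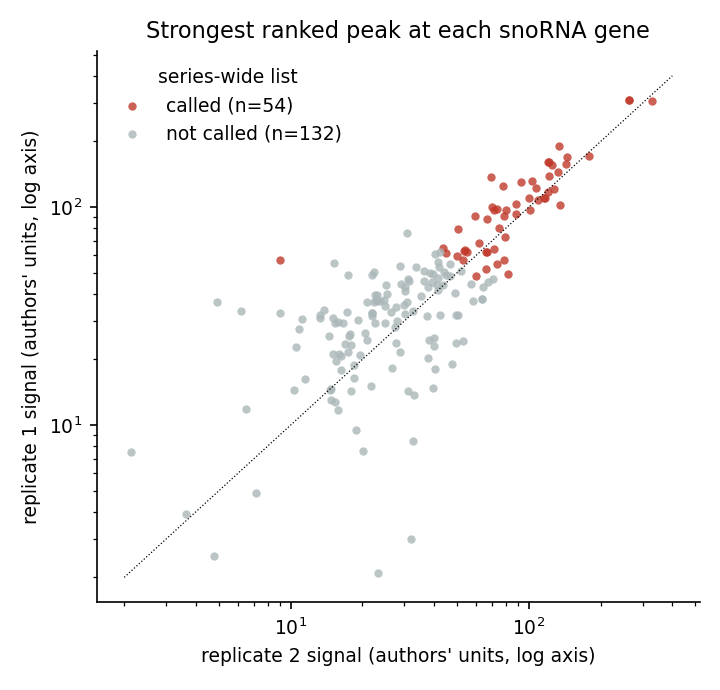
Signal of the strongest ranked peak within 200 bp of each snoRNA gene in replicate 1 (vertical, log axis, authors' units) against replicate 2 (horizontal, log axis, authors' units), for the 54 called genes (red) and the 132 uncalled genes with a ranked peak in both replicates (grey); the dotted line marks equal values. The called genes fill the upper right along the line, and 1 red point, K11H12.13, lies far to the left at a replicate 2 signal of 8.99.

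The largest ratio, 6.36, belonged to K11H12.13, a snoRNA gene in an intron of the ribosomal protein gene rpl-15. Its signals were 57.2 in replicate 1 and 8.99 in replicate 2, where it was called by a separate peak beside a stronger one, while its neighbour K11H12.12, in the same host, had 57.2 in replicate 1 and 78.2 in replicate 2. The 2 genes share the series-wide peak of signal 147, whose summit lies 197 bp from K11H12.13 and 2 bp from K11H12.12. The lowest ratio, 0.6, belonged to F28C6.11 in an intron of the ribosomal protein gene rpl-26, with 49.2 in replicate 1 and 82 in replicate 2. At both genes the series-wide summit lay past the 3′ end, 329 bp from the 5′ end at K11H12.13 and 230 bp from it at F28C6.11.

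Among intronic snoRNA genes ZK994.7 had the highest signal. It lies in an intron of pxn-1, which codes for a peroxidasin of the extracellular matrix, and had a signal of 629 in the series-wide list, 305 in replicate 1 and 329.5 in replicate 2. C51F7.3 in frm-7, a gene for a FERM domain protein, had 574, with 309.9 in replicate 1 and 263 in replicate 2. C51F7.4, annotated just upstream on the same strand and overlapping an exon, shares that peak and its values, and most of the bases printed before C51F7.3 belong to it. T03F7.8, in an intron of the cuticlin-like gene cutl-18 and on the opposite strand to it, had 349, with 171 in replicate 1 and 179 in replicate 2.

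B0334.12 lies inside the potassium channel gene twk-5, on the opposite strand, and had 318, with 158 in replicate 1 and 143 in replicate 2. C27H5.9 in pdl-1 had 290.2, with 156 in replicate 1 and 125 in replicate 2. Its host holds a second snoRNA gene, C27H5.10, which was not called, its distance to the same summit being 330 bp. F55A11.10 in F55A11.6 had 254, with 121 in replicate 1 and 127 in replicate 2. C10C6.8 in catp-8, a gene for a cation-transporting ATPase, had 239.8, with 132 in replicate 1 and 103 in replicate 2. Of these 4 genes F55A11.10 had its higher value in replicate 2 and the others in replicate 1.

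The next intronic genes were F38E11.14 in the cyclic nucleotide-gated channel gene cng-3 and T04A8.17 in ppat-1. F38E11.14 had 228, with 122 in replicate 1 and 107 in replicate 2. T04A8.17 had 223, with 129.7 in replicate 1 and 92.3 in replicate 2. C27H6.5, in unc-41, which acts in synaptic vesicle recycling, had 204, with 137 in replicate 1 and 69.4 in replicate 2. ZK484.9 in the ABC transporter gene haf-9 had 204, with 109.8 in replicate 1 and 116 in replicate 2. T08B2.13 in the phenylalanyl-tRNA synthetase gene fars-1 had 195, with 97.2 in replicate 1 and 101 in replicate 2. All 12 of the intronic genes of highest signal were called in both replicates.

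Outside introns, T19B4.8, between genes on chromosome I, had 328, with 190.2 in replicate 1 and 134 in replicate 2. F39B2.14, which overlaps an exon, had 305, with 169 in replicate 1 and 144 in replicate 2. The summit of F39B2.14 lay 86 bp outside the gene and 25 bp from a protein-coding transcript start. T06C12.16 had 294, with 145 in replicate 1 and 132 in replicate 2. Each of these 3 had its higher value in replicate 1. ZK265.10 (286), F59C6.15 (277), H09I01.2 (252) and T02E1.9 (243) followed, with replicate 1 values of 102 to 161 and replicate 2 values of 120.3 to 134.

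Around the IDR threshold of 2 on the −log10 scale, F25H5.9 in the pyruvate kinase gene pyk-1 (2.02, signal 105), T10B9.11 (2.03, signal 108) and D2021.6 (2.06, signal 106) lay just inside, and none of them was called in a single replicate. Just outside were C46C2.8 (1.99, signal 132), C24A1.8 (1.98, signal 103) and K02A11.12 (1.92, signal 104), so signal alone does not separate them. At the distance limit, K11H12.13 at 197 bp was the farthest gene inside, and F54E7.10 (212 bp), K07C10.2 and F17C11.24 (213 bp each) were nearest outside. Among genes with no ranked peak at all were B0348.8 in the phospholipase C gene egl-8, C02C6.13 in lron-3, and C04G6.12 in the MAP kinase gene mpk-2.

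Whether a host intron marks the called genes was asked first. Of the intronic genes 29 of 178 were called (16.3%, 11.6 to 22.4), against 25 of 168 outside introns (14.9%, 10.3 to 21), a difference of 1.41 percentage points with an interval of -6.34 to 9.07. In replicate 1 the shares were 10.1% for intronic genes and 11.3% for those outside, and in replicate 2 they were 12.4% and 11.3%. Genes on the strand of their host were called in 24 of 150 cases (16%) and genes on the opposite strand in 5 of 28 (17.9%). These data therefore give no direction to a difference by intron, and the interval still allows one of several points either way.

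The introns themselves did differ. Of the 184 introns that hold a snoRNA gene 27 contained a called summit (14.7%, 10.3 to 20.5), against 12 of the 1374 other introns of the same host genes (0.873%, 0.5 to 1.52) and 0.282% of all 109139 introns. The difference from the other host introns was 13.8 points (9.36 to 19.6). It was smaller in each replicate alone, 9.78% against 0.218% in replicate 1 and 10.3% against 0.291% in replicate 2. snoRNA-bearing introns are longer, with a median of 515 bp against 144 bp for the other host introns and 68 bp for all introns. Per 100 kb of intron they held 5.55 called introns, against 1.48 in the other host introns and 0.784 in all introns.

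The summits inside the host introns were set against small RNA genes. In 23 of the 27 called snoRNA-bearing introns a called summit lay within 200 bp of an intronic snoRNA gene. The 12 called host introns without a snoRNA gene held 10 distinct summits, because 3 nested introns of kin-1 share 1. Of these 10 summits, 4 lay within 200 bp of a tRNA or snRNA gene, namely 3 in pxn-1 at tRNA genes (signals 132, 151 and 144) and 1 in dhc-4 at the snRNA gene R07E5.16 (signal 327). The rest were in let-607, hmr-1, kin-1, jun-1, mnk-1 and cgef-1, with signals of 103 to 132.

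**Figure D3:**
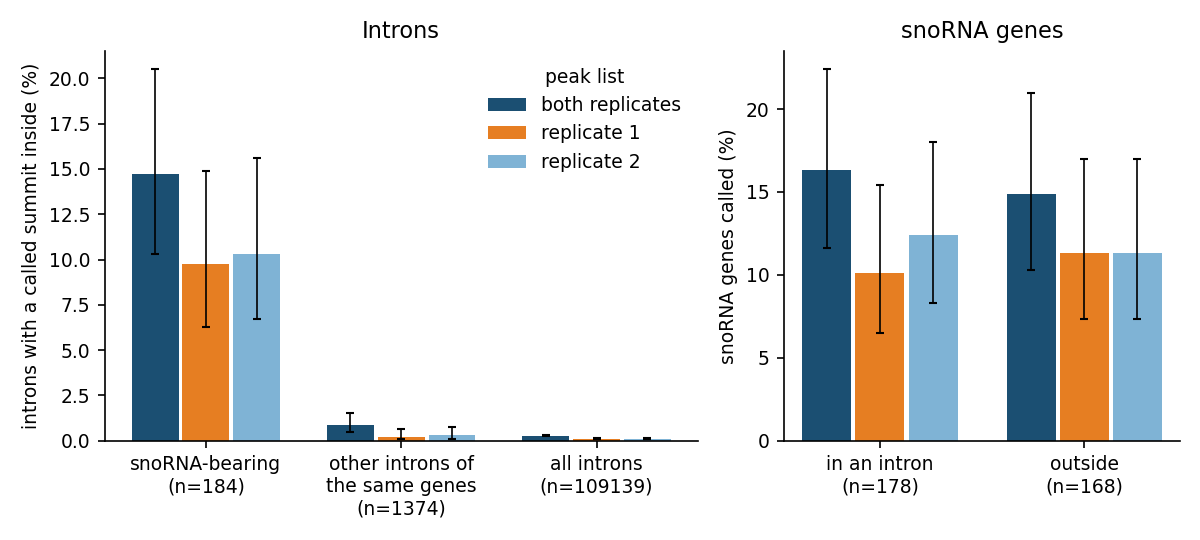
Left, percent of introns with a called summit inside (vertical axis) for introns that hold a snoRNA gene, other introns of the same host genes and all introns; right, percent of snoRNA genes called (vertical axis) in and outside introns. Colours mark the peak list (both replicates, replicate 1, replicate 2), bars are shares and lines 95% Wilson intervals: snoRNA-bearing introns reached 14.7% against 0.873%, while the 2 classes of snoRNA gene stood at 16.3% and 14.9%.

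Of the 159 host genes 28 had a called snoRNA gene, and 17 held 2 or more snoRNA genes. Only 2 of those 17 had a called one, pdl-1 with 1 of its genes and rpl-15 with both of its genes. Ribosomal protein genes, a classical kind of snoRNA host, supplied 13 hosts with 19 snoRNA genes, of which 4 were called, beside 29 of the 178 intronic genes in all: F28C6.11 in rpl-26, C16A3.11 in rps-13, and K11H12.12 and K11H12.13 in rpl-15. In these 4 genes, and in 10 of the 29 called intronic genes in all, the called summit lay in a promoter window of a protein-coding gene, meaning the 1000 bp before and the first 200 bp of an annotated transcript.

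Most called snoRNA genes were at most 80 bp or 120 to 140 bp long. This comparison, and the limit of 80 bp, were chosen after the values were seen. Of the genes of at most 80 bp 25 of 56 were called (44.6%, 32.4 to 57.6), against 29 of 290 longer genes (10%, 7.05 to 14), a difference of 34.6 points. The shares were 32.1% against 6.55% in replicate 1 and 39.3% against 6.55% in replicate 2. The course was not even: 4 of 72 genes over 80 and under 120 bp were called, 21 of 94 genes of 120 to 140 bp (22.3%) and 4 of 124 longer ones. Among short genes, 12 of 34 intronic ones were called and 13 of 22 outside introns. On chromosomes I and II most called genes and most short genes belong to the lower-numbered series of gene identifiers in the annotation. Called shares by series were not counted, and the part of the series in the comparisons by length and letters was not tested.

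The letters at the gene ends were read next. Of the 29 called genes over 80 bp 18 end in ACA with 2 to 4 bases after it (62.1%), against 55 of 261 uncalled ones (21.1%), while ACA ended 1 of the 25 called short genes. Box D letters CTGA stood in the last 15 bases of 34 of the 56 short genes. The looser box C together with CTGA was found in 30 of all 346 genes, of which 8 were called (26.7%, 14.2 to 44.4). Split by length, short genes had it in 7 of 25 called ones (28%) and 11 of 31 uncalled ones (35.5%). Genes over 80 bp had it in 1 of 29 called ones (3.45%) and 11 of 261 uncalled ones (4.21%). These letters alone do not assign a gene to a class, and 243 genes had neither that pair of box C and CTGA nor the ACA ending.

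Letters of RNA polymerase III promoters were counted in the windows around the gene starts. Box B, GTTCNANNC, searched on both strands within 150 bp of the 5′ end, stood at 65 of 346 snoRNA genes (18.8%), against 11.5% of all genes' windows and 96.7% of those of tRNA genes. Genes with it were called in 20 of 65 cases (30.8%, 20.9 to 42.8), against 34 of 281 without it (12.1%, 8.79 to 16.4), a difference of 18.7 points (7.88 to 31.1). In replicate 1 the shares were 27.7% with box B and 6.76% without, and in replicate 2 they were 26.2% and 8.54%.

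Sequences of the strongest genes, printed above, then led to a narrower search, chosen after the values were seen. It asked for the box A consensus within 100 bases and GTTCNNNNC within 50 bases before the 5′ end, both on the gene's strand; GTTCNNNNC includes every GTTCNANNC. Both were present before 33 snoRNA genes (9.54%), against 0.143% of all genes (67 genes, the 33 snoRNA genes among them) and 0 of 612 tRNA genes, whose own boxes lie inside the gene. Taken singly, box A stood before 18.5% of snoRNA genes and 3.81% of all genes, and GTTCNNNNC before 14.2% of snoRNA genes and 2.21% of all genes. Where GTTCNNNNC was present, the last match began at a median of -15 bases from the 5′ end (range -48 to -9).

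Of the 33 genes with both boxes 20 were called (60.6%, 43.7 to 75.3), against 34 of 313 others (10.9%, 7.88 to 14.8), a difference of 49.7 points. The genes whose sequences led to the search are among these, so the numbers describe them and are no independent support. Without the 20 named genes of highest signal, 9 of 22 genes with both boxes were called (40.9%), against 25 of 304 others (8.22%), a difference of 32.7 points. Those 20 genes were all called, so leaving them out lowers both shares by construction and gives no independent support either. Replicate 1 alone gave 51.5% with both boxes and 6.39% without, and replicate 2 alone 51.5% and 7.67%. In both replicates at once 15 of the 33 genes were called, against 15 of the 313. Counted over all 346 genes by host, intronic genes had 14 of 22 called with both boxes against 15 of 156, and those outside 6 of 11 against 19 of 157. By length, short genes had 12 of 18 called with both boxes against 13 of 38, and longer ones 8 of 15 against 21 of 275.

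Both boxes did not always come with a peak. Of the 13 uncalled genes that have them, 9 had no ranked peak within 200 bp, among them C04G6.12 in mpk-2. Of the 34 genes of other biotypes with both boxes 2 were called, and of the 30 among them with no snoRNA or tRNA gene within 200 bp none was called. The strongest gene of all, ZK994.7, has neither box in the 100 bases before it.

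**Figure D4:**
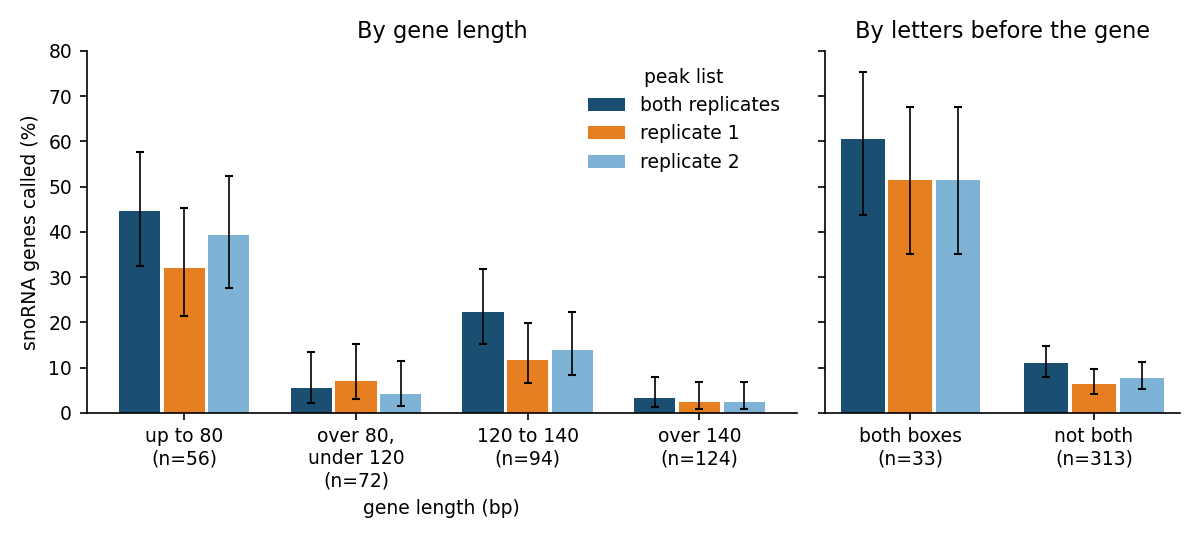
Percent of snoRNA genes called (vertical axis), left by gene length in bp and right by whether box A and GTTCNNNNC both stand before the gene; colours mark the peak list (both replicates, replicate 1, replicate 2), bars are shares and lines 95% Wilson intervals. The shares were 44.6% up to 80 bp and 22.3% at 120 to 140 bp, and 60.6% with both boxes against 10.9% without.

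The summits lay close to the start of the snoRNA genes. Their median position was -10 bp from the 5′ end (interval -34 to 13), with 30 of 54 before it, 14 inside the gene and 10 past its 3′ end. tRNA genes had a median of 11 bp and snRNA genes of 48 bp. The summit was nearer to the 5′ end of the snoRNA gene than to any protein-coding transcript start at 51 of the 54 genes, and at 27 of the 29 intronic ones. A call requires a summit within 200 bp of the gene, so nearness to the snoRNA gene is largely set by that rule. A promoter window of a protein-coding gene held 25 of the 54 summits, 10 of the 29 at intronic genes and 15 of the 25 outside introns. That window held 7 of the 25 summits at short genes and 18 of the 29 at longer ones. The share of all called summits in such windows is not given here, so these counts have no background beside them. The part of these windows in the calls was not tested. Without those 25 genes 9.03% of the snoRNA genes were called, a share lowered by construction because uncalled genes in such windows were kept.

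Genes with both boxes had their summits mostly before the gene. Their median was -41.5 bp (range -101 to 38), with 15 of 20 before the 5′ end, against 7.5 bp (-96 to 329) at the 34 called genes without both. The median in replicate 1 was -42.5 bp with both boxes and 15.5 bp without, and in replicate 2 it was -32 and 41.5 bp. From the first base of GTTCNNNNC the summit lay a median of -15 bp, and within 50 bp at 16 of the 20 genes. Their signals had a median of 209 (105 to 574), against 156 (88.3 to 629) without both. A promoter window of a protein-coding gene held 7 of the 20 summits with both boxes and 18 of the 34 without, and 16 called genes had neither the boxes nor such a window.

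**Figure D5:**
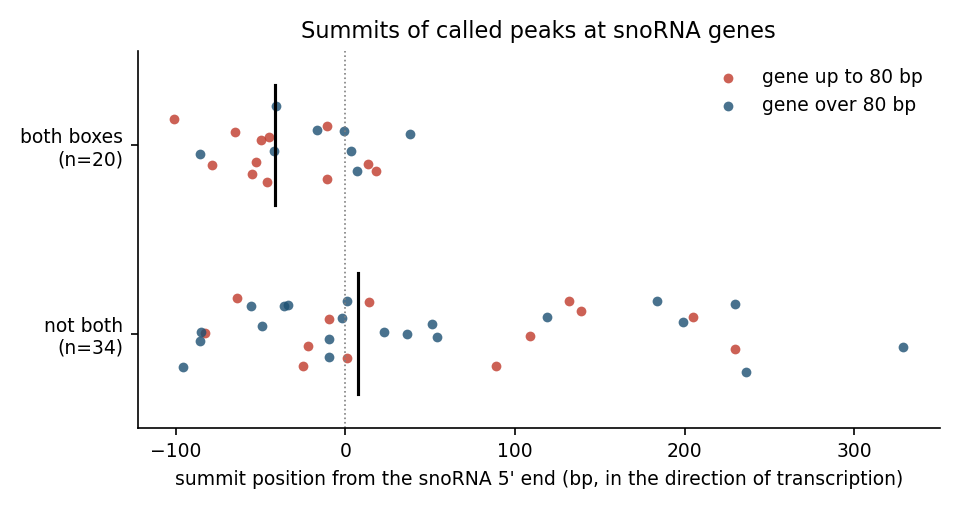
Position of the called summit from the snoRNA 5′ end in bp, in the direction of transcription (horizontal axis), for called genes with both boxes (upper row, 20 genes) and without (lower row, 34 genes); red points are genes of at most 80 bp, blue points longer ones, and black lines the medians. The upper row gathers around -41.5 bp and ends at 38 bp, while the lower row runs to 329 bp.

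B0334.12 in twk-5 stood apart in position and strand, and was looked at after its values were seen. Its summit lay 139 bp from the annotated 5′ end, past the 3′ end. On the opposite strand, printed above, box A and GTTCNNNNC both stand before the gene's other end, and CTGA stands near the end of the bases so read. Both boxes on the opposite strand and not on the annotated one were found at 2 of the 346 genes, of which B0334.12 alone was called. CTGA in the last 15 bases on the opposite strand alone was found at 2 of the 56 short genes.

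Other letters were counted in the same way. A run of 4 T within 50 bases after the 3′ end was present at 46 of the 54 called genes (85.2%) and 195 of the 292 uncalled ones (66.8%), with 61% of all genes having one. The X-box consensus that DAF-19 is known to bind, searched on both strands within 150 bp of the 5′ end, stood at 9 snoRNA genes (2.6%), against 3% of all genes, and 3 of the 9 were called. The GC content of the 300 bp around the 5′ end had a median of 44% at called genes, 40.3% at uncalled ones and 42.3% at tRNA genes. The part of base composition in the calls was not tested. By chromosome the called share ran from 6.06% on X (2 of 33, 1.68 to 19.6) to 23.6% on V (13 of 55, 14.4 to 36.3). These intervals overlap, and no share of all genes by chromosome is set beside them. In replicate 1 alone the shares were 3.03% on X and 14.5% on V, and in replicate 2 alone 3.03% and 16.4%.

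A list of 12 genes was drawn up for the proteins of the snoRNA particles, and each symbol was found in the annotation. It also held ruvb-1, ruvb-2, nol-10 and nol-14, which are not core proteins of the particles. The symbol gar-1 matched a gene on chromosome X that does not code for the particle protein of that name, which was thus not examined. A called summit lay in the promoter window of 2 of the 12 listed genes, against 2.47% of 19973 protein-coding genes. The 2 genes were fib-1, which codes for fibrillarin, with a signal of 133, and nola-3, the homologue of a core protein of box H/ACA particles, with 111. Of the single lists, that of replicate 1 had fib-1 called (signal 88.3) and that of replicate 2 had no gene of the list called. nol-56, nol-58 and dkc-1, which code for other core proteins of the particles, had no called summit.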

How the data were processed

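The authors deposited lists of peaks on assembly ce11. Per the file columns, each peak has a signal value set by the authors and, in the ranked lists, the −log10 of the IDR. Which aligner, peak caller and scaling were used is not given in the sources used here. Control data were not analysed here. The deposited thresholded lists hold exactly the ranked peaks with a −log10 IDR of 2 or more. In the series-wide ranked lists 16 unnamed columns were not used.

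Summits were set against the Ensembl release 115 annotation and the RefSeq sequence of WBcel235. A gene took the strongest peak with a summit within 200 bp. Each distinct intron of a protein-coding transcript was counted once. No test over samples was possible with 1 group, and shares, medians and Wilson or order-statistic intervals (95%) describe the data. Intervals of differences between shares combine the 2 Wilson intervals. Depth is unknown.

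Named genes were the 12 intronic and 8 other genes of highest called signal, 3 on each side of the IDR threshold, the alphabetically first 3 without a ranked peak, the extremes of the replicate ratio, and hosts of several snoRNA genes with a called one. Sequences are of the 4 intronic and 2 other called genes of highest signal, 1 per peak, and of the 2 uncalled genes of lowest signal, none of them on chromosome I. The opposite strand of B0334.12 and C10C6.8 were added after values were seen. The members, lists and comparisons were chosen with earlier results of these data known. Assignment and letter search were tested on simulated data. Alternatives were other lists, thresholds, distances, intron definitions and box letters. The work was done in Python 3.11.15 with scipy 1.17.1, pandas 2.3.3, numpy 2.4.6 and, for plots, matplotlib 3.10.9.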

Additional observations from a re-analysis of the deposited data

How the results depend on the processing

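No paired analysis was possible because a single group of 2 replicates was studied. The second series-wide list left the share, signal, position and differences within their intervals. So did limits of 100 and 500 bp and removal of genes near a tRNA or snRNA gene, which were not run for the introns, and merging of neighbouring snoRNA genes, run for the called share alone (16%). The called share of snoRNA genes was 21.7% at an IDR of 0.05, 19.9% with the 2000 strongest peaks, 4.05% with the summit inside the gene, and 10.7% to 11.8% with a replicate left out; the median signal was 145 at an IDR of 0.05 and 101 to 117 with a replicate left out. With the summit inside the gene, fewer genes can be called by construction: the median position was 20.5 bp, the difference by box B 6.38 points, by length 3.69 points (-1.45 to 13.7) and by both boxes 12.3 points, and 5 genes were called in both replicates. With the 2000 strongest peaks 48 were called in both.

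Leaving out a replicate gave differences of -1.2 to 1.05 points by host intron, 9.56 to 10 by introns, 17.6 to 20.9 by box B, 25.6 to 32.7 by length and 43.8 to 45.1 by both boxes, and a median position of -18 to -17 bp. Alternatives added after seeing the data gave 9.03% called without summits in promoter windows, 50.9 points by length in genes outside introns, 32.7 points by both boxes without the 20 named genes of highest signal, and, within 50 bases before the gene, 36.5 points for GTTCNNNNC and 43.1 points for GTTCNANNC. The 9.03% and the 32.7 points leave out called genes alone, so both are partly set by that choice. The cause of these shifts was not tested. By host intron the difference ran from -1.2 to 4.05 points over all alternatives, with 0 inside each interval. No difference changed its direction where the main interval excluded 0. The lists hold no depth, and signals of different lists have no common scale.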
